A study of Mus musculus with 48 samples.

Results

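The RNA levels of 9 genes that encode secretases and relatives of the amyloid precursor protein (APP) were followed in the brains of mice that lacked the actin nucleator Fmn2, carried an amyloid transgene, or both. The genes were Adam10, Adam17, Bace1, Psen2, Aph1a, Aph1b, Psenen, Aplp1 and Aplp2. They were taken by symbol from 48709 Ensembl genes in the count files, and all 9 passed the filter on low counts in each of 8 comparisons. In 5 comparisons made within 1 experiment (Fmn2 genotype at 3 months, at 8 months and in the cross, its interaction with age, and amyloid at 4 months) edgeR called 0 of the 9 genes with all mice, beside 0.0301% to 3.81% of all genes tested. Other settings called 1 of the 9 for the interaction: Aplp1, with DESeq2 (beside 1472 of 32188 genes) or upper-quartile factors (beside 782 of 17046). Without 1 library, Fmn2+/+ replicate 2 at 8 months, 5 of the 9 were called at 8 months, beside 3417 of 15021 genes tested. Leaving it out of the interaction called 2 of the 9, beside 2846 of 17545 genes tested. Psenen was higher and Aplp2 lower in amyloid cross mice than in 3-month-old mice without amyloid, a comparison between 2 sets of libraries. That comparison called 4 of the 9 genes, near its share of all genes tested (49.4%). With the study's fold minimum Psenen alone of the 9 stayed called, beside 2905 of 17599 genes tested.

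APP is cut by competing proteases. ADAM10 and, to a lesser degree, ADAM17 act as α-secretases that release the ectodomain from within the amyloid-β sequence, whereas BACE1, the β-secretase, makes the first cut on the way to amyloid-β. The stub that remains is cut in the membrane by γ-secretase, a complex of a presenilin (the catalytic subunit, for example PSEN2), nicastrin, an APH1 protein (APH1A, APH1B or, in rodents, APH1C) and PEN-2, the product of Psenen. APLP1 and APLP2 share the overall architecture of APP and are cut by the same enzymes, but they lack the amyloid-β sequence.

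All mice were of the C57BL/6J strain, were male according to the methods of the study, and were labelled as dentate gyrus, the hippocampal region of the granule cells. RNA was taken from whole tissue. The groups were Fmn2+/+ (labelled wild type; 5 mice) and Fmn2-/- (FMN2 knock out; 5 mice) at 3 months, Fmn2+/+ (3 mice) and Fmn2-/- (5 mice) at 8 months, 7 mice labelled FMN2-/-_APP and 9 labelled FMN2 +/+ APP at 3 months (the amyloid cross), and 6 APP and 6 wild-type mice at 4 months, whose titles name the prefrontal cortex (PFC) although their tissue field says dentate gyrus. The APP mice express human mutant APP in neurons from a Thy1 promoter. The labels number the replicates within a group and say no more about their origin, so p-values measure the spread between these libraries.

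Total counts ranged from 6818809 to 43921030 per mouse, and the 8-month-old Fmn2+/+ group held both extremes (43921030, 6818809 and 8381078). Levels are given in CPM, the count of a gene scaled to the same library total in every mouse. Fmn2 stood at 93.2 to 108.9 CPM in Fmn2+/+ mice and 22.2 to 27.4 in Fmn2-/- mice at 3 months, but at 83.3 to 101.8 in the mice labelled FMN2-/-_APP and 18.9 to 23.4 in those labelled FMN2 +/+ APP, so both cross groups went against their labels and are called by their labels throughout. The 7 granule cell markers summed to 206 to 275 CPM in the 4-month-old mice, against 710.0 to 1372 in the other 34. The 7 cortical neuron markers summed to 789 to 860.2 CPM in the 4-month-old wild-type mice, against 353 to 536 in the 3-month-old Fmn2+/+ mice. In bulk tissue, fewer cells of a type and less RNA per cell cannot be told apart. The plaque microglia gene Cst7 was at 30.1 to 41.3 CPM in 4-month-old APP mice and at 0 to 12.4 CPM in the cross.

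Several of the genes share sequence with other genes, which bears on how their reads could be counted. Of the 50-base windows of the Psenen transcript, 39% also occur in another annotated transcript, for the most part in the processed pseudogene Gm12396 (chromosome 4, 40775259 to 40775564, minus strand, mm10), whose sequence matches all 306 bases of the Psenen coding region. The first 60 coding bases are shown, in mouse GENCODE M21 transcripts, because no read inside them can be placed by sequence alone.
Psenen: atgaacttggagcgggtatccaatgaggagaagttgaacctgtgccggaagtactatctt
Gm12396: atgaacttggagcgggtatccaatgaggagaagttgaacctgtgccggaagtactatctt
Aph1b has a near copy too, its neighbour Aph1c, which lies on the same strand of chromosome 9 (66814994 to 66834726). The coding regions match at 748 of 773 aligned bases (96.8%), and 18% of the 50-base windows of Aph1b are shared. Coding bases 11 to 70 hold 7 mismatches, given in capitals.
Aph1b: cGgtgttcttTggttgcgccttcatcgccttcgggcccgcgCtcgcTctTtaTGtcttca
Aph1c: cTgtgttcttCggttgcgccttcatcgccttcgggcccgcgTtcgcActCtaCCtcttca
Shared windows made up 47.9% for Aph1a (most in the processed pseudogene Gm15429 and in Car14), 30.7% for Bace1 (most in Rnf214, on the opposite strand, and Gm49338) and 5.93% for Adam17 (Iah1). Adam10, Psen2, Aplp1 and Aplp2 shared none. Whether the counting used strand or kept reads that map to several places is not given in the sources used here, so values of Aph1a, Bace1, Psenen and Aph1b carry this limit.

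The levels of the 9 genes spanned more than 2 orders of magnitude. On the scale of mean CPM per kilobase of exon over 46 mice, Aplp1 (chromosome 7, 30434982 to 30445535) stood highest at 384, and Aplp2 (chromosome 9, 31149557 to 31211815) came next at 95.9. Adam10 (chromosome 9, 70678997 to 70780229) reached 21.8 and Bace1 (chromosome 9, 45838580 to 45864399) 17.4. The γ-secretase subunits were lower, with Aph1b (chromosome 9, 66775202 to 66795490) at 5.99, Psen2 (chromosome 1, 180227004 to 180263438) at 3.83, Psenen (chromosome 7, 30561863 to 30563627) at 3.77 and Aph1a (chromosome 3, 95893969 to 95898288) at 1.27. Adam17 (chromosome 12, 21323509 to 21373632) lay among them at 2.89. The 2 genes lowest in CPM, Aph1a and Psenen, had as few as 28 and 30 counts in a library, whereas Aplp1 had at least 7467.

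**Figure D1:**
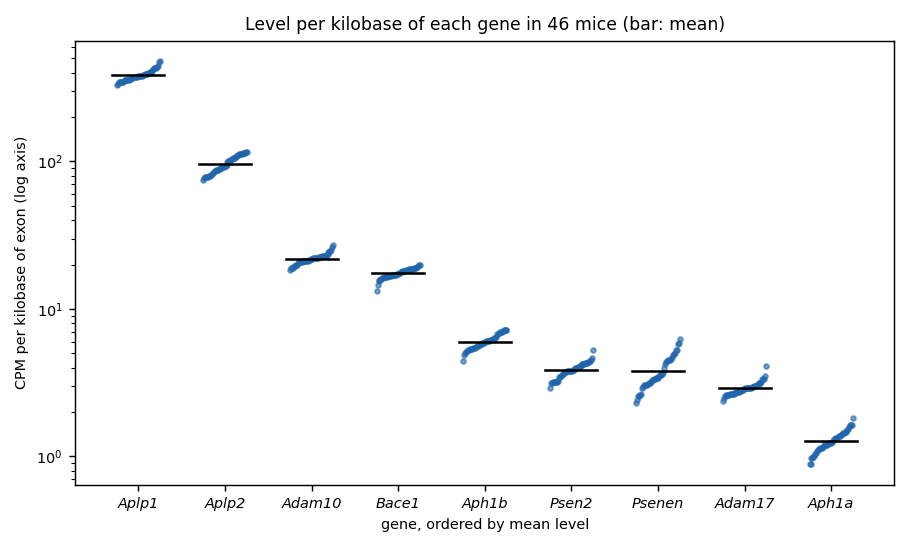
Level of each gene in CPM per kilobase of exon (log axis) in 46 mice, 1 point per mouse and sorted within each gene, with a bar at the mean. Means ran from 1.27 for Aph1a to 384 for Aplp1, and the points of Psenen were the most spread.

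The genes also differed in how much they varied between mice. The coefficient of variation of CPM over the 46 mice was 7.94% for Bace1, 8.49% for Adam10, 9.02% for Aplp1 and 10.6% for Adam17. It was 11.8% for Aph1b, 12.7% for Psen2 and 13.7% for Aplp2, and reached 16.6% for Aph1a and 26.2% for Psenen, the 2 genes with the fewest counts. The highest group mean exceeded the lowest by 1.14 times for Adam17, 1.16 for Adam10, 1.19 for Bace1, 1.27 for Aplp1, 1.28 for Aph1b, 1.31 for Psen2, 1.44 for Aplp2, 1.50 for Aph1a and 1.73 for Psenen.

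When the 8 groups were put in order of their mean CPM, the ranges of neighbouring groups overlapped in all 7 neighbouring pairs for 7 of the genes. How often other genes do so was not counted, so the order and its gaps are given as a description. For Aplp2 the order ran from 4-month-old wild-type mice (671 ± 8.42 CPM, SD, n = 6) and APP mice (646 ± 26.9, n = 6) through Fmn2+/+ (607 ± 37.9, n = 5) and Fmn2-/- (587 ± 29.8, n = 5) at 3 months and Fmn2-/- (556 ± 39.2, n = 5) and Fmn2+/+ (514 ± 7.47, n = 3) at 8 months to the mice labelled FMN2-/-_APP (505 ± 27.8, n = 7) and FMN2 +/+ APP (465 ± 14.4, n = 9). The only neighbours in that order whose ranges did not overlap were the 8-month-old groups. For Aph1a, only the highest group, 4-month-old wild type, stood clear of the next, 4-month-old APP.
Psenen ran in a different order. It was highest in the mice labelled FMN2 +/+ APP (6.13 ± 0.897 CPM, n = 9) and FMN2-/-_APP (5.96 ± 1.35, n = 7), followed by Fmn2-/- (5.36 ± 0.627, n = 5) and Fmn2+/+ (4.45 ± 0.221, n = 3) at 8 months. The remaining groups had 4.12 ± 0.300 (Fmn2-/- at 3 months), 3.93 ± 0.321 (wild type at 4 months), 3.70 ± 0.563 (APP at 4 months) and 3.53 ± 0.417 (Fmn2+/+ at 3 months). All neighbours in this order overlapped.

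**Figure D2:**
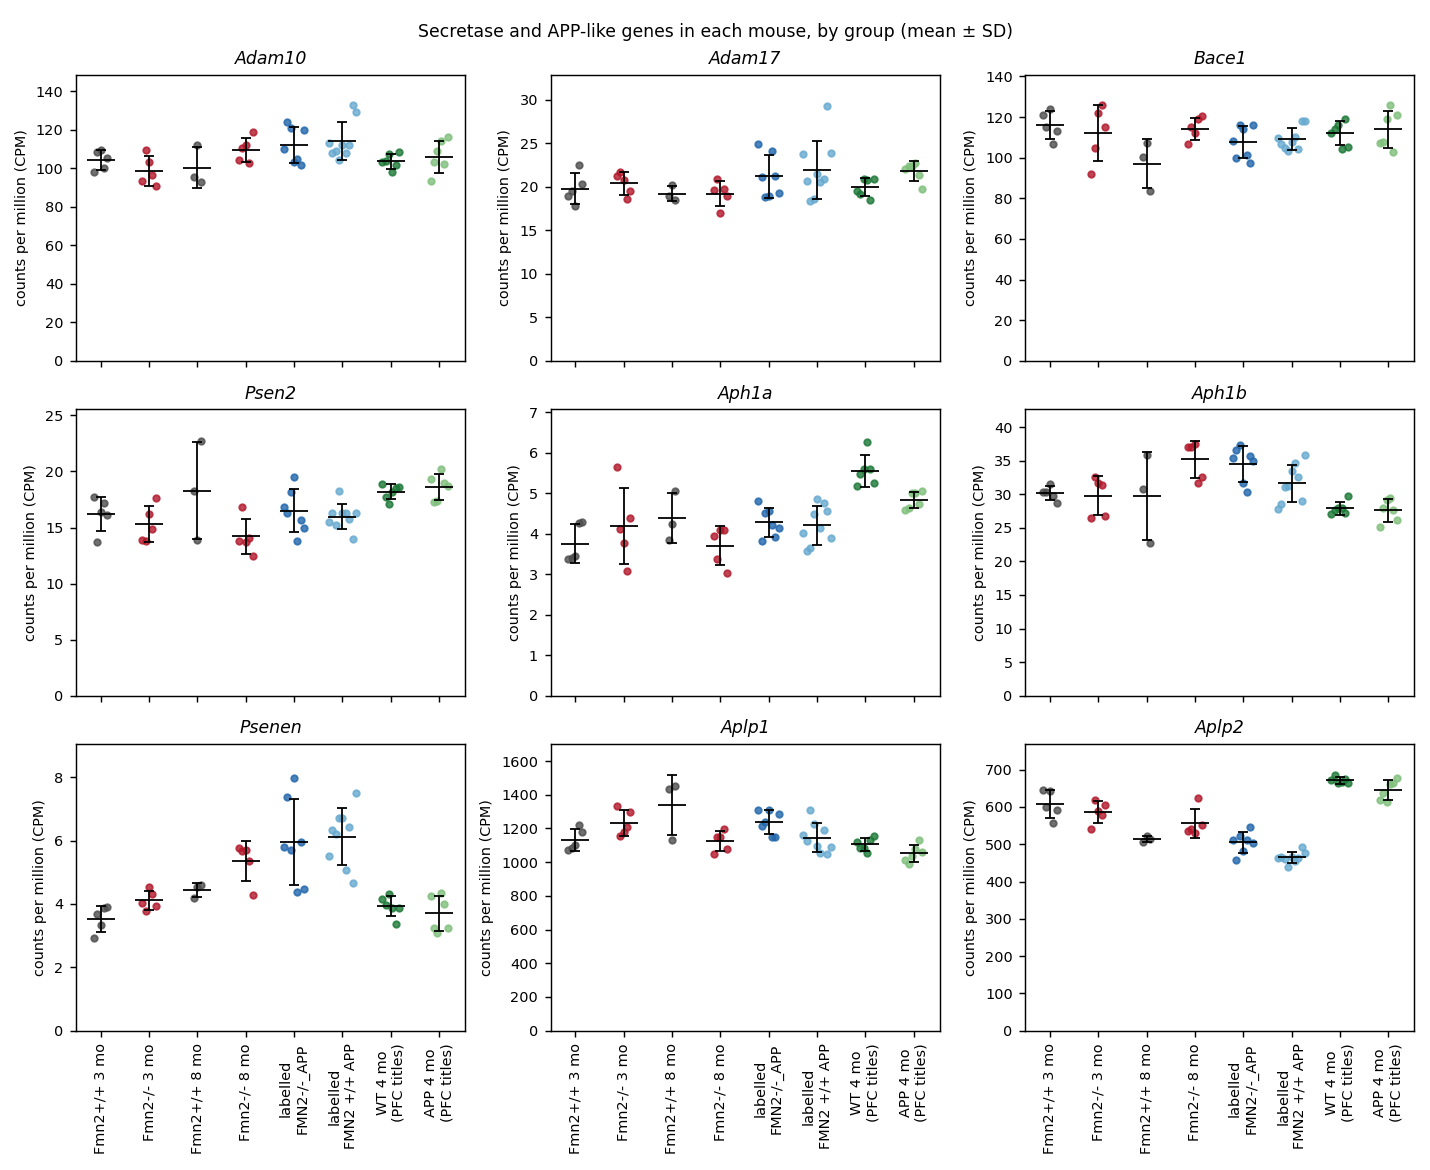
CPM of each gene in each mouse (1 point per mouse, linear axis from 0) in the 8 groups, with mean ± SD. The points of Psenen in both amyloid cross groups (4.38 to 7.97) lie for the most part above those at 3 months (2.91 to 4.54), and those of Aplp2 in the cross (439.8 to 545) lie for the most part below (541 to 646).

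The first comparison asked whether loss of Fmn2 alters these genes in young mice. By edgeR's quasi-likelihood test, with p-values adjusted over all genes and a threshold of 0.05, 0 of 9 genes were called, beside 0.0301% of all genes tested (5 of 16630). None (0) had an unadjusted p under 0.05, beside 1750 of 16630 genes. DESeq2 called 0 of the 9 as well. Differences of the Fmn2-/- from the Fmn2+/+ mice lay between -0.09 and 0.22 on the log2 scale, with a median of -0.03 (0.00 over all genes), and 95% intervals reached from -0.29 to 0.51. The CPM values are scaled over all 46 mice and the fold changes come from a fit to the groups compared.
Psenen had the largest of these differences. Its level was 2.91, 3.68, 3.33, 3.86 and 3.90 CPM in the Fmn2+/+ mice and 4.04, 3.79, 4.54, 4.30 and 3.95 CPM in the Fmn2-/- mice. Of the Fmn2-/- mice, 4 lay above all Fmn2+/+ mice, and the groups overlapped. The difference was 0.22 (SE 0.12, adjusted p = 0.537, edgeR). Aplp1 differed by 0.12 (SE 0.06, adjusted p = 0.524, edgeR), from 1073 to 1223 CPM in Fmn2+/+ mice and 1153 to 1331 in Fmn2-/- mice. All but 1 of the Fmn2-/- libraries came from another sequencing lane than the Fmn2+/+ libraries, so lane and genotype can hardly be told apart at this age.

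At 8 months, the older age of the study, 0 of 9 genes were called, beside 1.13% of all genes (166 of 14665). At an unadjusted p under 0.05 there were 3 (Bace1, Psen2 and Aplp1), beside 3419 of 14665 genes, and DESeq2 called 0. Differences ranged from -0.37 to 0.29 (median 0.12, against 0.01 over all genes), and intervals were wide, reaching -0.68 and 0.63.
Bace1, the β-secretase, had 100.2, 107.3 and 83.7 CPM in the 3 Fmn2+/+ mice and 106.8, 115, 112, 119 and 120.4 in the 5 Fmn2-/- mice. The lowest Fmn2-/- mouse lay just below the highest Fmn2+/+ mouse and the other 4 above all 3, and the difference was 0.25 (SE 0.08, adjusted p = 0.124, edgeR).
Among the γ-secretase genes, Psen2 had 18.3, 13.9 and 22.7 CPM in Fmn2+/+ mice and 13.8, 16.8, 13.7, 14.1 and 12.5 in Fmn2-/- mice. Fmn2+/+ replicate 2 lay within the Fmn2-/- range and the other two above it, and the difference was -0.37 (SE 0.14, adjusted p = 0.153, edgeR). Psen2 lies on the chromosome of the deleted gene, 5.40 megabases from Fmn2. Psenen had 4.19, 4.55 and 4.60 CPM in Fmn2+/+ mice and 5.77, 5.66, 5.71, 5.37 and 4.27 in Fmn2-/- mice. Replicate 5 of the Fmn2-/- mice lay among the Fmn2+/+ mice and the others above them, and the difference was 0.29 (SE 0.16, adjusted p = 0.279, edgeR). Aph1b differed by 0.25 (SE 0.12, adjusted p = 0.239) and Aph1a by -0.20 (SE 0.18, adjusted p = 0.519).
The APP-like genes stood on opposite sides. Aplp1 had 1433, 1132 and 1452 CPM in Fmn2+/+ mice and 1049, 1148, 1151, 1195 and 1079.8 in Fmn2-/- mice, with Fmn2+/+ replicate 2 again inside the other group's range, and differed by -0.24 (SE 0.09, adjusted p = 0.137, edgeR). Aplp2 had 507, 522 and 513 CPM in Fmn2+/+ mice and 535, 541, 529, 625 and 551 in Fmn2-/- mice. These groups did not overlap, yet the difference was 0.12 (SE 0.07, adjusted p = 0.336, edgeR). The α-secretase genes Adam10 (0.14, SE 0.08, adjusted p = 0.320) and Adam17 (0.02, SE 0.09, adjusted p = 0.932) had overlapping groups.

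Leaving out 1 library changed this result. Without Fmn2+/+ replicate 2, which at 6818809 counts was the shallowest of all, 5 of the 9 genes were called, beside 3417 of 15021 genes tested. In that fit Bace1 was higher by 0.32 (adjusted p = 0.0148), Adam10 by 0.23 (adjusted p = 0.0365) and Aph1b by 0.37 (adjusted p = 0.0365), whereas Psen2 (-0.49, adjusted p = 0.0163) and Aplp1 (-0.35, adjusted p = 0.00464) were lower in Fmn2-/- mice. With any of the other 7 mice left out, 0 of the 9 genes and 4 to 160 genes in all were called. The fit without that library rests on 2 Fmn2+/+ mice, one of them on lane 6 and one on lane 7 with all the Fmn2-/- mice. The counts of Fmn2-/- replicates 2 and 3 differed by 1.62 times the sampling variance, against 3.50 to 6.40 in the other pairs of that group, and with both summed into 1 sample 0 of the 9 genes were called.

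**Figure D3:**
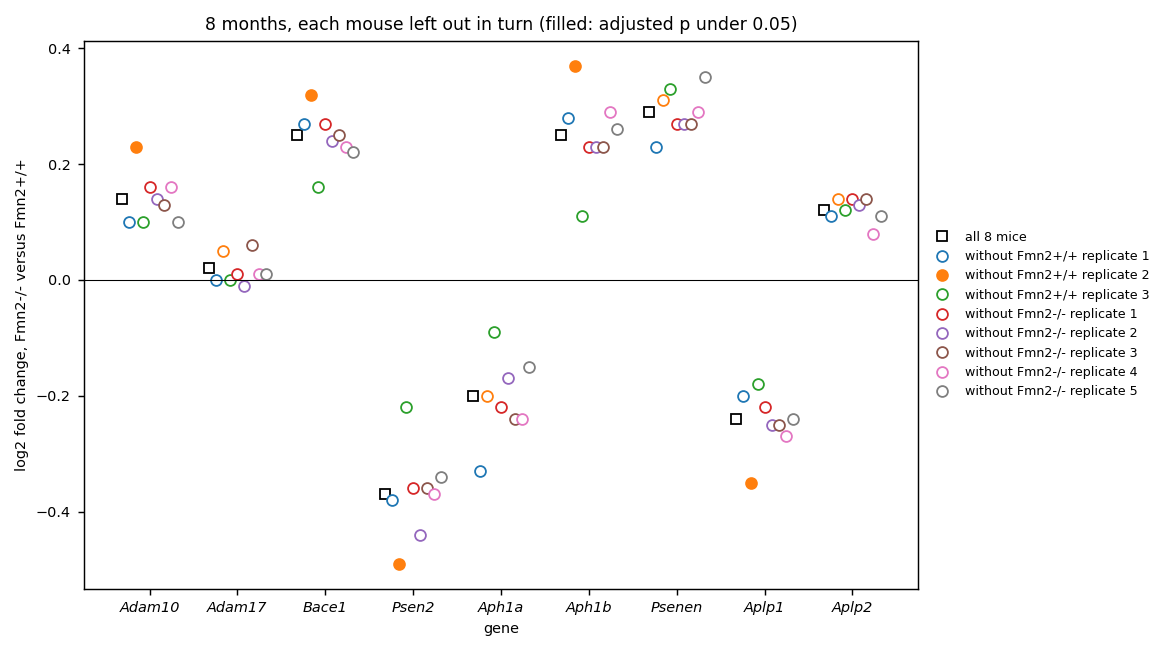
Log2 fold change of each gene at 8 months (Fmn2-/- over Fmn2+/+) with all 8 mice (squares) and with 1 mouse at a time left out (circles, filled where the adjusted p was under 0.05). Filled circles occur in the fit without Fmn2+/+ replicate 2, for Bace1, Adam10, Aph1b, Psen2 and Aplp1.

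Whether the genotype difference itself changed with age was tested as an interaction. It called 0 of 9 genes, beside 3.73% of all genes (635 of 17046), while 3 had an unadjusted p under 0.05, beside 3910 of 17046. Aplp1 came nearest, at -0.38 (SE 0.11, adjusted p = 0.0517, edgeR), since its difference was 0.12 at 3 months and -0.24 at 8 months. That value crossed the threshold under other settings: it was -0.36 with DESeq2 (adjusted p = 0.0113), -0.40 with upper-quartile factors (adjusted p = 0.0481) and -0.47 without Fmn2+/+ replicate 2 at 8 months (adjusted p = 0.00307), but -0.08 once gene length and GC content were corrected for (adjusted p = 0.711). Bace1 stood at 0.29 (SE 0.12, adjusted p = 0.160), Adam10 at 0.21 (SE 0.10, adjusted p = 0.191) and Psen2 at -0.29 (SE 0.17, adjusted p = 0.312). Without that library Adam10 also passed, at 0.31 (adjusted p = 0.0336), in a fit that called 2846 of 17545 genes tested.

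Within the amyloid cross, the groups were compared by their Fmn2 labels. The test called 0 of 9, beside 1.57% of all genes (261 of 16656), and DESeq2 called 0. An unadjusted p under 0.05 was found for 1 (Aplp2), beside 2772 of 16656 genes. Mice labelled FMN2-/-_APP, in which Fmn2 was at the wild-type level, had 459 to 545 CPM of Aplp2 (median 512) and those labelled FMN2 +/+ APP 439.8 to 493 (median 464). The groups overlapped and the difference was 0.12 (SE 0.05, adjusted p = 0.194, edgeR). The other 8 genes lay between -0.05 and 0.13, and the intervals over all 9 reached -0.32 and 0.26. Psenen was at 4.38 to 7.97 CPM (median 5.79) and 4.65 to 7.51 CPM (median 6.33) in these groups. Bace1 was at 97.6 to 116 (median 108.2) and 103.5 to 118 (median 107.8), and Adam10 at 101.5 to 124 (median 109.9) and 104.2 to 133 (median 112). All 3 overlapped broadly.

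APP and wild-type mice of 4 months gave the comparison of amyloid with its control within 1 experiment, although each genotype had a lane of its own. The test called 0 of 9 genes, beside 3.81% of all genes (637 of 16733), and DESeq2 called 0. An unadjusted p under 0.05 was found for 2 (Aph1a and Adam17), beside 2396 of 16733 genes. In the same fit App, to which reads of the human transgene can align, rose by 0.61 (adjusted p = 5.47e-09). All 6 microglia markers were called higher (365 to 460.1 against 239 to 257 CPM in sum), as were all 5 plaque microglia markers (139.9 to 194 against 23.6 to 28.6 CPM).
Aph1a, a γ-secretase subunit gene, had 4.58 to 5.06 CPM in the APP mice (median 4.86) and 5.17 to 6.27 in wild-type mice (median 5.53). The groups did not overlap, and the difference was -0.19 (SE 0.08, adjusted p = 0.288, edgeR). Adam17 differed by 0.14 (SE 0.06, adjusted p = 0.274), with 19.7 to 22.7 CPM (median 22.2) in APP and 18.5 to 20.9 CPM (median 20.1) in wild-type mice. Bace1 was at 102.9 to 126 CPM (median 114) in APP and 104.1 to 119 (median 113) in wild-type mice, and differed by 0.04 (SE 0.05, adjusted p = 0.828). Over the 9 genes the differences lay between -0.19 and 0.14, with intervals from -0.36 to 0.26.

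The amyloid cross was then set against the 3-month-old mice without amyloid, averaged over both Fmn2 labels so that the contrast does not depend on which cross group lacks Fmn2. Libraries of the cross and of the other 3-month-old mice carry different names and sample numbers in their titles, and amyloid and library set cannot be told apart here. The test called 4 of 9 genes (44.4%; 3 higher, 1 lower), beside 49.4% of all genes (8701 of 17599), which is near the background. The median difference of the 9 genes was 0.10, against 0.02 over all genes.
Psenen, the PEN-2 gene, ranged from 2.91 to 4.54 CPM in the 10 mice without amyloid (3.83 ± 0.463, SD) and from 4.38 to 7.97 CPM in the 16 cross mice (6.05 ± 1.08, SD). Group medians were 3.68 and 4.04 CPM without amyloid and 5.79 and 6.33 CPM in the cross. In 14 of the 16 it lay above all 10. It rose by 0.66 (SE 0.10, adjusted p = 4.36e-06, edgeR). The pseudogene Gm12396, identical over the Psenen coding region, had group means of 0.344 and 0.412 CPM in the cross and 0.827 and 0.904 CPM at 3 months, and its part in the difference was not tested.
Aplp2 ranged from 541 to 646 CPM without amyloid (597 ± 33.9, SD, n = 10) and from 439.8 to 545 CPM in the cross (482 ± 29.03, SD, n = 16). Group medians were 599 and 589 CPM without amyloid and 512 and 464 CPM in the cross. In 15 of the 16 cross mice it lay below all 10 others. It fell by 0.31 on the log2 scale (SE 0.03, adjusted p = 8.35e-08, edgeR). The other APP-like gene, Aplp1, differed by 0.01 (SE 0.04, adjusted p = 0.918), with 1185 ± 90.1 CPM (SD, n = 16) and 1183 ± 86.0 CPM (SD, n = 10).
Smaller rises were called for Adam10 (0.15, SE 0.05, adjusted p = 0.00664; 113 ± 9.44 against 101.4 ± 6.76 CPM) and Aph1b (0.14, SE 0.05, adjusted p = 0.0222; 32.9 ± 3.04 against 30.0 ± 2.07 CPM), both with overlapping groups. With the study's fold minimum, 0.5 on the log2 scale, the calls of Aplp2, Adam10 and Aph1b were lost. Psenen alone of the 9 stayed called, beside 2905 of 17599 genes tested. Over 21 alternatives the Aph1b call was lost in 5, among them the fit without 3-month-old Fmn2-/- replicate 6 (0.12, adjusted p = 0.0511). The Adam10 call was lost in 2, the second being mice labelled FMN2-/-_APP against Fmn2+/+ mice (0.11, adjusted p = 0.170). Bace1 (-0.07, adjusted p = 0.195), Adam17 (0.10, adjusted p = 0.230), Psen2 (0.04, adjusted p = 0.615) and Aph1a (0.10, adjusted p = 0.372) were not called.

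The Psenen and Aplp2 differences were called, without a fold minimum, in each matched pair of groups. These pairs are parts of the averaged contrast, so they are read from the same libraries. Amyloid and library set cannot be told apart in them either. Mice labelled FMN2-/-_APP against Fmn2+/+ mice gave 0.76 for Psenen (adjusted p = 0.00240, edgeR) and -0.26 for Aplp2 (adjusted p = 0.00441). Mice labelled FMN2 +/+ APP against Fmn2-/- mice gave 0.57 (adjusted p = 0.00203) and -0.33 (adjusted p = 7.92e-05). Marker genes moved with them: all 7 oligodendrocyte markers were called lower in the cross (1255 to 3035 against 2025 to 4314 CPM in sum), 5 of 7 cortical neuron markers were lower (243 to 363 against 353 to 536) and 5 of 5 plaque microglia markers were higher (24.5 to 93.5 against 16.02 to 25.5). Their part in the result was not tested. App differed by 0.03 (adjusted p = 0.703) here, beside a rise of 0.61 at 4 months, and the difference between the contrasts was not tested. App ranged from 1324 to 1818 CPM in mice labelled FMN2-/-_APP and 1398 to 2199.9 in those labelled FMN2 +/+ APP, which overlapped the 3-month-old groups (1311 to 1818), whereas 4-month-old APP mice had 2756 to 3139 and their wild-type controls 1811 to 1981. Cst7 had a median of 0.201 CPM (0 to 8.33) in mice labelled FMN2-/-_APP and 2.31 (0.0391 to 12.4) in those labelled FMN2 +/+ APP. Its median was 34.5 in 4-month-old APP mice, and it reached at most 0.310 in the 3-month-old mice without amyloid. The amyloid status of each cross mouse was taken from its label, and whether every cross mouse carried the transgene was not tested. Without 3 libraries rich in choroid plexus markers (3-month-old Fmn2-/- replicate 4 and replicates 4 and 5 labelled FMN2 +/+ APP) Psenen was at 0.68 (adjusted p = 1.67e-05) and Aplp2 at -0.30 (adjusted p = 1.95e-06).

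**Figure D4:**
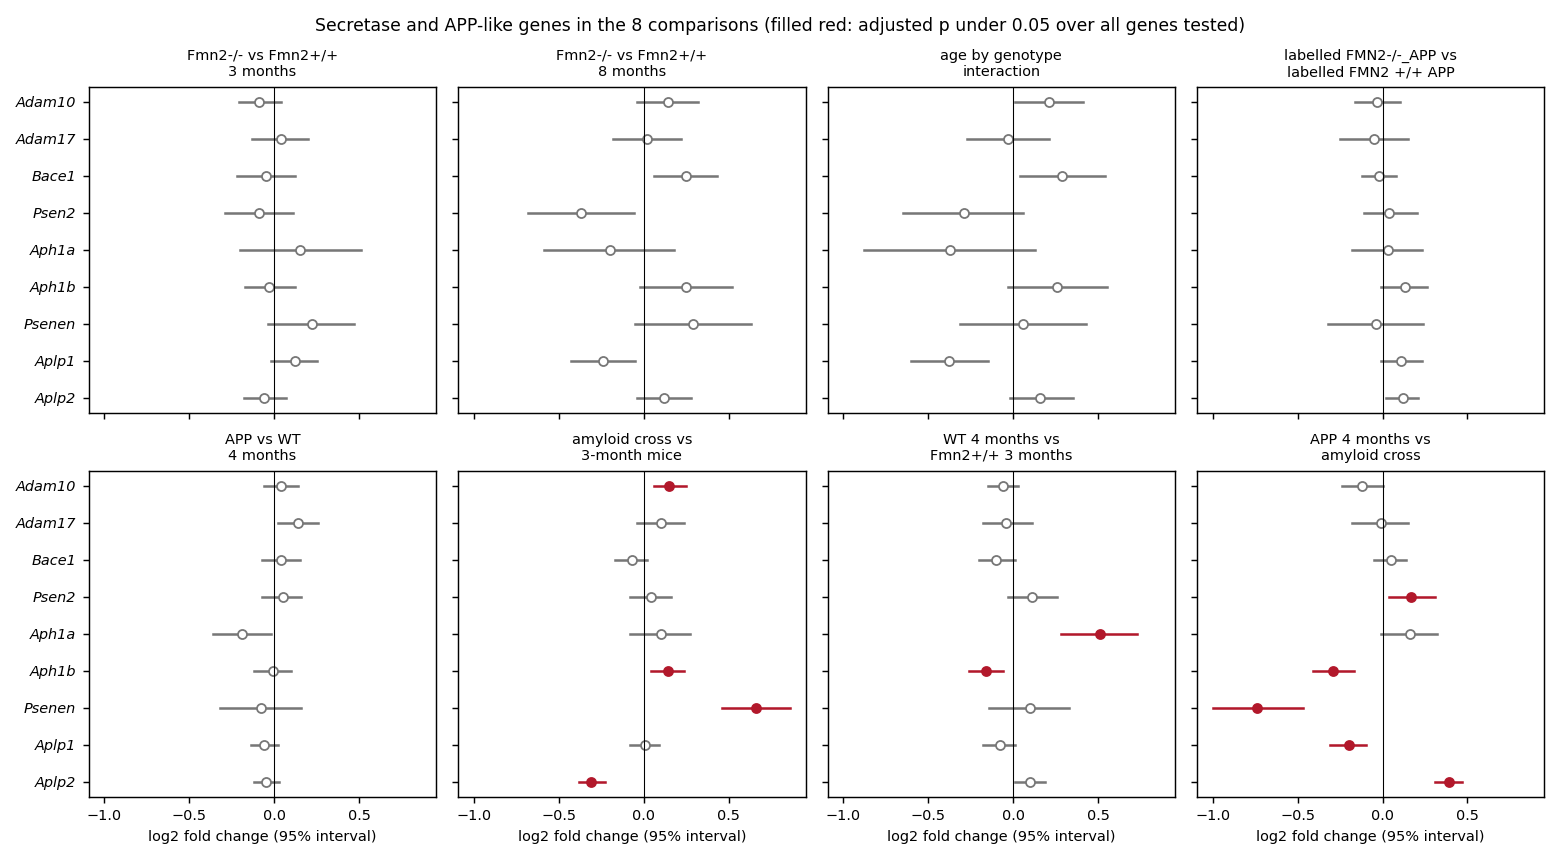
Log2 fold change of each gene (point) with its 95% interval (line) in the 8 comparisons, filled red where the adjusted p was under 0.05. No point is filled in the first 5 panels, and Psenen (0.66) and Aplp2 (-0.31) lie farthest from 0 in the panel of the amyloid cross against 3-month-old mice.

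The 4-month-old groups were last set against 3-month-old groups of the same amyloid status. Region as the titles give it, age and library set cannot be told apart in these contrasts. Granule cell markers were called lower in both (6 of 7) and cortical neuron markers higher (7 of 7), and their part in the differences was not tested. In wild-type mice (4 months over 3-month-old Fmn2+/+), 2 of 9 genes were called (22.2%; 1 higher, 1 lower), beside 74.7% of all genes (12447 of 16661). Among the APP mice (4 months over the cross), 5 of 9 were called (55.6%; 2 higher, 3 lower), beside 71.7% (12599 of 17570). Both shares were below those of all genes in these fits, but they rest on 9 genes and moved with the settings. Upper-quartile factors called 3 of 9 in wild-type mice (12394 of 16661 genes) and 7 of 9 in APP mice (12616 of 17570). With a correction for length and GC content the counts were 6 of 9 in wild-type mice (12036 of 16661 genes) and 4 of 9 in APP mice (12656 of 17570). With the study's fold minimum 1 gene stayed called in each. It was Aph1a in the former (beside 7508 of 16661 genes) and Psenen in the latter (beside 7875 of 17570).
Aph1a had 5.17 to 6.27 CPM (median 5.53) in 4-month-old wild-type mice and 3.38, 3.41, 3.45, 4.26 and 4.30 in 3-month-old Fmn2+/+ mice. The groups did not overlap, and it was higher by 0.51 (SE 0.10, adjusted p = 4.51e-04, edgeR). With a correction for length and GC content it was higher by 0.30 (adjusted p = 0.0160). Between the amyloid groups Aph1a differed by 0.16 (SE 0.08, adjusted p = 0.0826).
Aplp2 had 613 to 679 CPM (median 649.5) in 4-month-old APP mice, above all 16 mice of the cross (439.8 to 545). It was higher by 0.39 (SE 0.04, adjusted p = 3.63e-09, edgeR). In the wild-type contrast Aplp2 had 664 to 686 CPM (median 669) against 556 to 646 and did not overlap either, at 0.10 (SE 0.04, adjusted p = 0.0505), a value that passed the threshold in 12 of 18 alternatives (0.07 to 0.16 over all 18).
Psenen had 3.09 to 4.34 CPM (median 3.62) in 4-month-old APP mice, below all 16 mice of the cross (4.38 to 7.97). It fell by 0.74 on the log2 scale (SE 0.13, adjusted p = 1.97e-05, edgeR). In wild-type mice it differed by 0.10 (SE 0.11, adjusted p = 0.424). The amyloid contrast shares the cross mice with the comparison above, so both are read from the same libraries.
Aph1b was lower at 4 months in wild-type mice (-0.16, adjusted p = 0.00480) and in APP mice (-0.29, adjusted p = 1.13e-04), but with the length and GC correction the first became 0.03 (adjusted p = 0.499). Aplp1 was lower in the amyloid contrast (-0.20, adjusted p = 7.03e-04), and the correction moved it to -0.51 (adjusted p = 1.04e-07). In the wild-type contrast Aplp1 was not called at -0.08, but was at -0.53 with the correction (adjusted p = 4.31e-08). Psen2 was higher in the amyloid contrast (0.17, adjusted p = 0.0188), a value that turned to -0.04 with that correction (adjusted p = 0.632). Bace1 and Adam17 were called in neither contrast.

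The other genes of APP processing gave a wider view. Of 57 such genes (further γ-secretase and secretase genes, App, its trafficking partners, factors for sheddase maturation, other secretase substrates and amyloid-degrading proteases), 55 could be tested in most comparisons. At 3 months, for the interaction and between the cross labels 0 were called, in either direction. At 8 months 1 of 54 was called (1.85%, against 1.13% of all genes). Timp3, an inhibitor of metalloproteinases including ADAM10 and ADAM17, was higher in Fmn2-/- mice (0.50, SE 0.08, adjusted p = 0.0288, edgeR). That fit called 166 genes in all, but 3 with lane in the fit and 5 with Fmn2-/- replicates 2 and 3 summed. Whether Timp3 kept its call under these settings is not given here.
In APP against wild-type mice at 4 months, 2 of 55 rose, App among them, and 3 fell (9.09%, against 3.81% of all genes). Those that fell included Cx3cl1, a chemokine shed by ADAM10 and ADAM17 (-0.24, adjusted p = 0.00196), and the endothelin-converting enzyme Ece1 (-0.22, adjusted p = 0.00955). Nicastrin (Ncstn), a further γ-secretase subunit, stood at 75.6 to 84.4 CPM in APP and 75.5 to 85.7 in wild-type mice.
In the cross against 3-month-old mice, 15 of 55 rose and 14 fell (52.7%, near the 49.4% of all genes; median -0.04, against 0.02 over all genes). Bace2, the homologue of Bace1, rose by 2.57 (adjusted p = 1.84e-07), the γ-secretase substrate Cd44 by 1.49 (adjusted p = 1.09e-06) and Tspan33, a tetraspanin of the family that traffics ADAM10, by 0.68 (adjusted p = 1.8e-08). Erbb4, a receptor cut by ADAM17 and γ-secretase, fell by 0.56 on the log2 scale (adjusted p = 1.59e-04).
For 4-month-old over 3-month-old wild-type mice 27 were higher and 19 lower (83.6%, against 74.7% of all genes; median 0.17, against -0.01). For APP mice over the cross 31 were higher and 16 lower (85.5%, against 71.7%; median 0.26, against -0.02). The BACE1 substrate Sez6 was higher in both (1.33 and 1.48), as was L1cam (1.30 and 1.70), whereas the Notch ligand Jag1 was lower (-1.73 and -1.63). Ncstn was higher by 0.40 in both (adjusted p = 6.95e-07 and 9.55e-07). These contrasts share no mouse.

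Across the 46 mice the 9 genes did not move as 1 group. Of 36 pairs, 15 had a positive Pearson correlation of log2 CPM over all mice and 15 after subtraction of group means, but 10 were positive in both. Over all mice the lowest value was -0.78, between Psenen and Aplp2, which became -0.33 within groups. Within groups Psen2 and Aplp1 had the highest value (0.52, against 0.14 over all mice), followed by Bace1 and Adam10 (0.49, against 0.34). These mice share library sets, so the values over all mice include differences between sets, and they are given as a description. Summed markers of 11 cell types and states were set beside them in the same way. Aplp2 correlated with cortical neuron markers at 0.83 over all mice and 0.19 within groups, with endothelial markers at 0.70 and 0.02, with astrocyte markers at -0.77 and 0.06, with granule cell markers at -0.76 and -0.33 and with choroid plexus markers at -0.65 and -0.08. The other 6 lists lay between -0.31 and 0.43 over all mice. Psenen correlated with cortical neuron markers at -0.64 over all mice and -0.39 within groups, with endothelial markers at -0.64 and -0.21, with astrocyte markers at 0.59 and 0.05, with granule cell markers at 0.50 and -0.28 and with choroid plexus markers at 0.48 and 0.02. Its other 6 lists lay between -0.30 and 0.23 over all mice.
Among 10193 genes of at least 10 CPM, those most like each of the 9 over the 46 mice, by the same measure, were Rps7 (0.93) and Rnh1 (0.89) for Psenen, and Dst and Slc7a1 (both 0.93) for Aplp2. For the sheddases they were Hs2st1 (0.82) and Ccny (0.78) for Adam10 and Stat3 (0.72) and E130308A19Rik (0.65) for Adam17. Bace1 was most like Atxn1l and Pcdhac2 (both 0.83). Psen2 was like Smyd5 (0.73), Aph1a like Entr1 (0.83) and Rrnad1 (0.82), Aph1b like Sugt1 and Ipo7 (both 0.80), and Aplp1 like Psmc4 (0.80) and B4gat1 (0.77).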

How the data were processed

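RNA was isolated with TRIZOL, libraries were made with the TruSeq v2 kit, and the authors aligned reads with STAR to mm10 and counted them with HTSeq (intersection-non-empty mode). The deposited values are raw counts per Ensembl gene, 1 file per run. The 2 runs of each of 2 mice were summed, which gave 46 mice from 48 runs. Symbols, positions, exon lengths and transcript sequences came from GENCODE M21 (mm10), which held 48349 of the 48709 genes, and 360 were not matched. The annotation and strand setting of the counting are not given in the sources used here.

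CPM were computed with TMM factors over all mice. Each comparison was fitted to its own groups with edgeR 4.0.16 (R 4.3.3; TMM, filterByExpr, quasi-likelihood test, Benjamini-Hochberg over all genes tested), without a fold minimum. The fitting was tested on simulated data. Log2 CPM for correlations used a prior count of 2. Alternatives were DESeq2 1.42.0 (the tool of the study), other normalization factors, no filter, a correction for length and GC content, the study's fold minima (0.25 and 0.5), lane, a replicate block, leaving out mice and, added after seeing the data, omission of choroid-plexus-rich libraries (over 1000 CPM) and near-identical libraries summed. Named genes were all 9 genes, Fmn2, App, the 4 pathway genes with the largest called change and the 2 most similar genes, and those not reported here were left out. Genes, lists and markers were chosen with earlier results of these data known. Replicate numbers were not used to pair samples in the main fits. In no comparison did every same-numbered pair correlate over 0.1, a check that cannot exclude pairing. Between the cross labels same-numbered pairs averaged 0.0826 and other pairs -0.0104. Counts of 28 or more per gene and library limit the precision of the lowest genes.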

Additional observations from a re-analysis of the deposited data

Results flagged for a closer look

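In 3 of 63 gene and group combinations with 4 to 10 mice, 1 mouse stood apart from the rest by Dixon's criterion, about the number chance gives (1 in 20). Aph1b was at 29.8 CPM in replicate 6 of the 4-month-old wild-type mice, with the nearest mouse at 27.97. Psenen was at 4.27 CPM in replicate 5 of the 8-month-old Fmn2-/- mice, the lowest of its group, with the nearest at 5.37. Aplp2 was at 625 CPM in replicate 4 of the same group, with the nearest at 551.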

How the results depend on the processing

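Of 1404 values (1 gene in 1 comparison under 1 alternative, fold minima included), 16 lost and 30 gained a call, 4 that were called in either fit changed sign, and 1354 kept their side of the threshold, 47 of which changed sign where neither fit passed. The 4 were Adam10 (0.15), Aph1b (0.03) and Psen2 (-0.21) in the wild-type 4-month contrast and Psen2 (-0.04) in the APP contrast, all with length and GC correction. In the former contrast that correction called 6 of the 9 genes, beside 12036 of 16661 genes tested. The interaction had 1 called gene with DESeq2 and 1 with upper-quartile factors. With the study's fold minima 1 gene was called in each of the last 3 contrasts, beside 2905 of 17599, 7508 of 16661 and 7875 of 17570 genes. Leaving out a mouse gave 0 to 0 called genes at 3 months, 0 to 5 at 8 months, 0 to 2 for the interaction, 0 to 0 for the cross labels and 4-month amyloid, 3 to 5 for the cross against 3 months (3-month-old mice only were left out) and 2 to 3 for the wild-type 4-month contrast. In the last 2 of these, 8158 to 8591 and 11968 to 12304 genes in all were called. With a replicate block (pairing by number), 0 of the 9 genes were called in the first 5 comparisons, beside 2, 4, 0, 261 and 536 genes in all. In the last 3 it called 3, 3 and 4 of the 9, beside 7913 of 17450, 11938 of 16370 and 12826 of 17385 genes. Counts over all genes moved more. At 3 months (5) they were 142 with DESeq2, 10 with upper-quartile factors, 14 unfiltered, 3 with relative log expression factors, length and GC correction or lane, 2 with the block, and 54 without Fmn2-/- replicate 1. At 8 months (166) they were 724, 292, 1124, 34 with length and GC correction, 3 with lane, 4 with the block, 5 with near-identical libraries summed, and 4 to 3417 with a mouse left out. For the interaction (635) they were 1472 with DESeq2, 399 unfiltered, 27 with length and GC correction, 0 with the block, 227 with libraries summed and 8 to 2846 with a mouse left out. For the cross labels (261) they were 756 with DESeq2, 437 with the correction, 129 with the fold minimum, 85 without choroid-rich libraries and 121 to 369 with a mouse left out. The fold minima left 392, 2905, 7508 and 7875 genes in the last 4, and 4913 were called for the mice labelled FMN2 +/+ APP against Fmn2-/-. The cause of these changes was not tested.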
